A study of Mus musculus with 8 samples.

Results

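The excitability genes of the sarcolemma, the surface membrane of the muscle fibre, were followed in soleus muscle of Ts65Dn and wild-type mice. The set was named as 6 genes: the sodium channel Scn4a, the chloride channel Clcn1, the inward rectifier potassium channels Kcnj2 and Kcnj11, and the sodium pump genes Atp1b1 and Fxyd1. A member was measured where the array annotation gives a probe set (a group of probes summarised to 1 value) exactly 1 gene symbol and that symbol is in the set. This held for 5 of the 6 genes among 19938 genes compared, and each of the 5 has 1 probe set. Scn4a was not matched to a probe set and was not analysed here.

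Soleus (a calf muscle rich in slow fibres) was taken in the basal state, under pentobarbital anaesthesia, from male mice aged 5 months. The 4 Ts65Dn mice carry an additional marker chromosome and are a model of Down syndrome. The 4 controls were wild-type mice labelled B6EiC3SnF1/J, a mixed B6 and C3H background. Each mouse gave 1 array, and values are log2 units after RMA, a method that corrects background, normalizes arrays to each other and summarises probes. Precision is limited by the number of arrays. The tissue is whole muscle, so that fewer cells of a type and less RNA per cell cannot be told apart.

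A muscle action potential begins when voltage-gated sodium channels open, and it is ended by their inactivation and by potassium channels. In skeletal muscle the chloride channel Clcn1 carries most of the resting conductance and steadies the membrane, and its loss causes myotonia. Kcnj2 is an inward rectifier that holds the resting potential near the potassium equilibrium, and Kcnj11 is the pore of the channel that opens when ATP is low. The sodium pump restores the gradients after activity. It joins a catalytic alpha subunit with a beta subunit, such as Atp1b1, that brings it to the membrane, and with an FXYD protein. Fxyd1, phospholemman, lowers the affinity of the pump for sodium until it is phosphorylated.

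The comparison asks whether the soleus of Ts65Dn mice holds more or less message of these genes. None of the 5 measured members passed the test: 0 were called by limma at a Benjamini-Hochberg adjusted p under 0.05 over all genes, beside 5.26% of all genes, and 0 had an unadjusted p under 0.05, beside 34.8%. Their log2 fold changes (Ts65Dn minus wild type) ran from -0.02 for Fxyd1 to 0.25 for Clcn1. The median was 0.20, beside -0.10 over all genes and 0.11 over genes at or above the median level, where all 5 members lie. After level matching, a correction for array differences described in the next paragraph, the members' median was -0.03, and leaving out wild-type arrays 2 and 3 gave -0.05. In none of the 5 did the 2 groups stand clear of each other, while they did so in 22.7% of all genes. The fold change was above 0 in 4 of the 5 on the deposited values, beside 39.2% of all genes, and in 2 of the 5 after level matching. The 39.2% includes dimmer genes, and at or above the median level most genes were above 0. The members lie on chromosomes 1, 6, 7 and 11, outside the segments that are trisomic in these mice.

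The arrays themselves differed. The array median was 4.23 to 4.29 in Ts65Dn and 4.37 to 4.56 in wild type. The interquartile range was 3.01 to 3.12 in Ts65Dn and 2.62 to 2.93 in wild type, with the smallest values in wild-type arrays 2 (2.74) and 3 (2.62). Genes at or above the median level had positive fold changes more than dimmer genes did, with medians of 0.11 and -0.21. Level-matched values, in which the median deviation of the 100 genes nearest in mean level was subtracted in each array, and values without wild-type arrays 2 and 3 are therefore given beside the members.

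**Figure D1:**
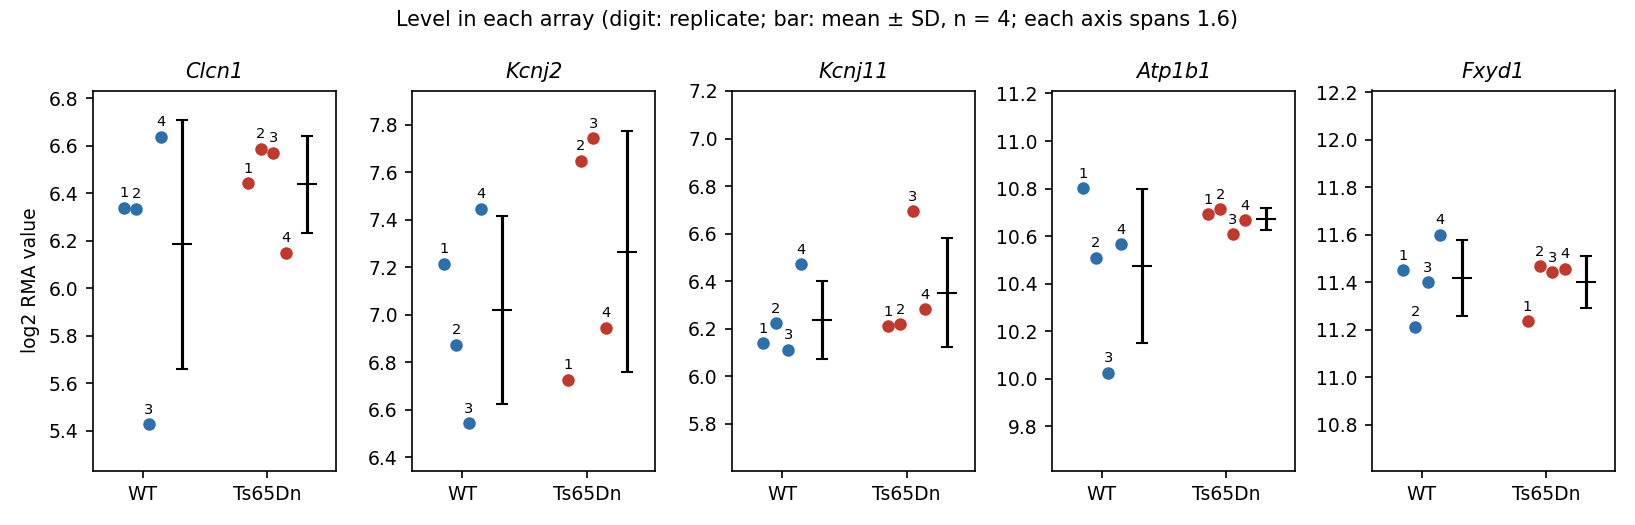
Log2 RMA value of the 5 measured members in each array, wild type in blue and Ts65Dn in red, with the replicate number at each point and the mean ± SD (n = 4) as black bars; all panels span the same number of log2 units. The groups overlap in every panel, and wild-type array 3 is the lowest of the 8 arrays for Clcn1, Kcnj2, Kcnj11 and Atp1b1.

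Clcn1, the chloride channel that steadies the resting membrane, had log2 values of 6.44, 6.59, 6.57 and 6.15 in Ts65Dn replicates 1 to 4 and of 6.34, 6.33, 5.43 and 6.64 in wild-type replicates 1 to 4. Wild-type array 3 lay far below the rest, and the other 7 arrays overlapped between the groups. The means were 6.44 ± 0.20 in Ts65Dn and 6.18 ± 0.52 in wild type (SD of log2 values, n = 4). The log2 fold change was 0.25 (SE 0.23, 95% interval -0.26 to 0.77, adjusted p = 0.444, limma). It was 0.0001 without wild-type array 3, -0.05 without wild-type arrays 2 and 3, and 0.03 after level matching, so that the difference in means rested on array 3.

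Kcnj2, the rectifier that holds the resting potential, varied most within the Ts65Dn group, with values of 6.73, 7.65, 7.74 and 6.94 in replicates 1 to 4. In wild type the values were 7.21, 6.87, 6.54 and 7.45. Ts65Dn arrays 2 and 3 were above every wild-type array, while Ts65Dn arrays 1 and 4 fell within the wild-type range. The means were 7.27 ± 0.51 and 7.02 ± 0.39 (SD of log2 values, n = 4), and the log2 fold change was 0.25 (SE 0.26, 95% interval -0.33 to 0.82, adjusted p = 0.506, limma). The sign turned with the scaling, to -0.03 after level matching and to -0.01 after a further quantile normalization, and dropping wild-type arrays 2 and 3 gave -0.06. The value was 0.09 without Ts65Dn array 3, 0.12 without Ts65Dn array 2 and 0.43 without Ts65Dn array 1.

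The upstream sequences of Clcn1 and Kcnj2 are shown because this pair had the smallest p among the members' correlations across arrays, given further on. Each is the 250 bases before the gene's start in the RefSeq promoter table of build GRCm38.p6, written 5′ to 3′ along the gene's strand. Capitals mark matches on either strand to the MEF2 motif, to the box TATAAA, to the E-boxes CAGCTG and CACGTG, or to the box CCAAT. The table held 4 of the 5 measured members, with no entry for Kcnj11. The first window is chr6:42286435-42286684 (+ strand) and the second chr11:111065914-111066163 (+ strand).
Clcn1: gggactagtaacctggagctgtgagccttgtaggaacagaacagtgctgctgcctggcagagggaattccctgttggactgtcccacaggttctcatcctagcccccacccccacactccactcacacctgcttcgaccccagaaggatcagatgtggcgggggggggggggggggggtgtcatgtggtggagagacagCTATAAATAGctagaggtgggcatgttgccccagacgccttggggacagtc
Kcnj2: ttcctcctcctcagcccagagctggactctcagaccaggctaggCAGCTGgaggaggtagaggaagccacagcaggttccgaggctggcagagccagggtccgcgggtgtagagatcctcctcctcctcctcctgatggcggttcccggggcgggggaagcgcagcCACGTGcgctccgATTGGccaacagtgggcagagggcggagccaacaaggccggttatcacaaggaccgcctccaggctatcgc

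In the Clcn1 window a MEF2 motif began 51 bases before the start and overlapped a TATAAA that began 50 bases before it. MEF2 factors are transcription factors of muscle genes. The MEF2 motif occurred in 2.92% of all 32851 windows in the table and TATAAA in 12.4%. The Kcnj2 window held CAGCTG, an E-box that myogenic factors can bind, 206 bases before the start, CACGTG, an E-box of the clock type, 84 bases before it, and CCAAT on the opposite strand 71 bases before it. These occurred in 13%, 6.02% and 33.8% of all windows. No motif of the 5 was shared by the Clcn1 and Kcnj2 windows. A match describes letters and not binding.

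For Kcnj11, the pore of the ATP-sensitive potassium channel, the values were 6.21, 6.22, 6.69 and 6.28 in Ts65Dn replicates 1 to 4 and 6.14, 6.22, 6.11 and 6.47 in wild type. Ts65Dn array 3 stood above all others, and the other 3 Ts65Dn arrays were inside the wild-type range. The log2 fold change was 0.12 (SE 0.15, 95% interval -0.21 to 0.44, adjusted p = 0.579, limma). It was 0.0014 without Ts65Dn array 3 and -0.19 after level matching (adjusted p = 0.479, limma). The sulfonylurea receptor Abcc9, the regulatory partner of this pore in muscle, had a log2 fold change of 0.65 (adjusted p = 0.122, limma), which was 0.22 without wild-type arrays 2 and 3. The other receptor, Abcc8, had one of -0.44 (adjusted p = 0.0784, limma), which was -0.19 after level matching and -0.22 without those arrays.

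Atp1b1, the common beta subunit of the pump, had values of 10.69, 10.71, 10.61 and 10.67 in Ts65Dn and of 10.80, 10.51, 10.02 and 10.56 in wild type, in the order of replicates 1 to 4. All 4 Ts65Dn values lay inside the wild-type range, and wild-type array 3 was the lowest. The means were 10.67 ± 0.05 and 10.47 ± 0.33 (SD of log2 values, n = 4), and the log2 fold change was 0.20 (SE 0.16, 95% interval -0.15 to 0.55, adjusted p = 0.383, limma). Dropping wild-type array 3 gave 0.05, and dropping wild-type arrays 2 and 3 together gave -0.01.

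Fxyd1, the muscle regulator of the pump, had values of 11.24, 11.47, 11.44 and 11.46 in Ts65Dn replicates 1 to 4 and of 11.45, 11.21, 11.40 and 11.60 in wild-type replicates 1 to 4. One low array in each group, Ts65Dn array 1 and wild-type array 2, lay near the same value. The means were 11.40 ± 0.11 and 11.42 ± 0.16 (SD of log2 values, n = 4), and the log2 fold change was -0.02 (SE 0.12, 95% interval -0.29 to 0.26, adjusted p = 0.937, limma). This interval was the narrowest among the 5 members. The sign was positive after median centring of the arrays (0.19) and when Ts65Dn array 1 (0.04) or wild-type array 4 (0.05) was dropped.

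A doubling is 1 on the log2 scale. On the deposited values the 95% intervals of all 5 members lay between -1 and 1. After median centring of the arrays the upper bound reached 1.04 for Clcn1 and 1.08 for Kcnj2, the only settings tried in which a member's interval passed a doubling or a halving. Each interval bounds a difference in array signal under its own scaling and does not cover the choice of scaling. A missed threshold does not show equal levels.

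**Figure D2:**
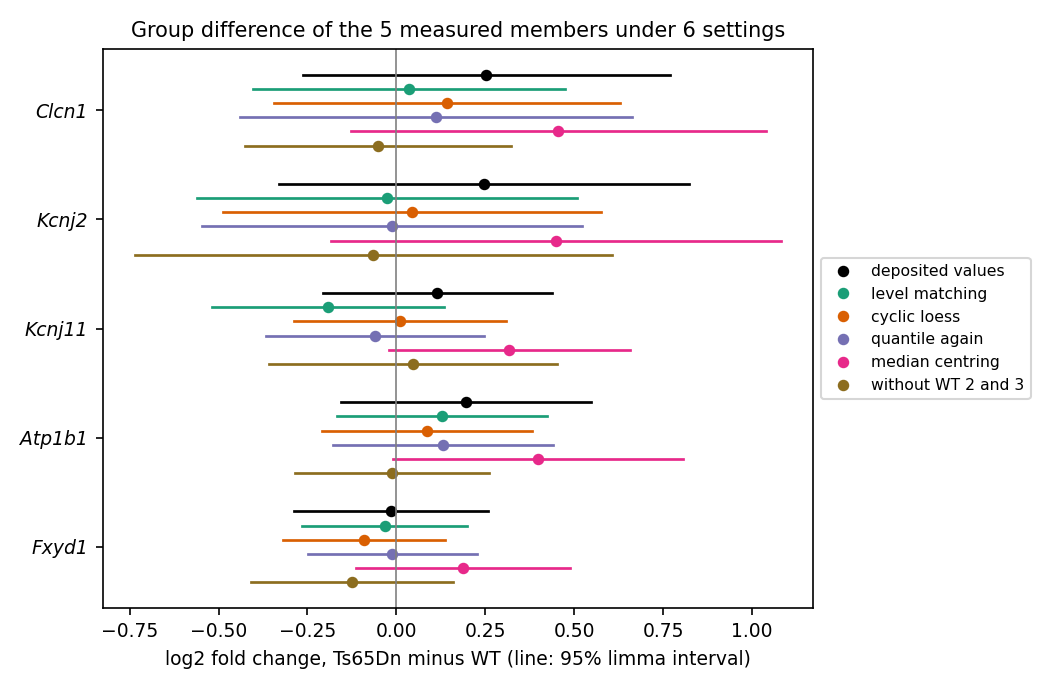
Log2 fold change (Ts65Dn minus wild type) of the 5 measured members with its 95% limma interval, for the deposited values, for 4 other scalings and without wild-type arrays 2 and 3. Every interval includes 0, and values after median centring lie to the right, from 0.19 for Fxyd1 to 0.46 for Clcn1.

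Wild-type array 3 was the lowest of all 8 arrays for 4 of the 5 members, all but Fxyd1. Among all genes at or above the median level it was the lowest for 33.39%, more than for any other array. The members' low values there thus came in an array with the smallest interquartile range, and the part of that range in the members' values was not tested.

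Across the 8 arrays, 10 pairs of measured members were compared. Clcn1 and Kcnj2 had a Pearson r of 0.74 (exact permutation p = 0.0116) and a Spearman rho of 0.74 (exact permutation p = 0.0458). Adjusted over the 10 pairs these exact permutation p-values were 0.116 and 0.383. Without the 2 arrays farthest from the median of Clcn1, wild-type arrays 3 and 4, r was 0.69 (exact permutation p = 0.131).

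Clcn1 and Atp1b1 had the highest r, 0.82 (exact permutation p = 0.0800, adjusted 0.267), with a Spearman rho of 0.33 (exact permutation p = 0.428, adjusted 0.475). Without wild-type arrays 3 and 4 r was 0.03 (exact permutation p = 0.958). Without wild-type array 3 alone it was -0.17 (exact permutation p = 0.720), so that the relation rested on that array. The remaining 8 pairs had r from 0.08 to 0.68, with adjusted exact permutation p-values from 0.266 to 0.803. No pair passed after adjustment.

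Members of like role were also compared within each array, which asks whether one changed more than the other. Fxyd1 minus Atp1b1 differed between the groups by -0.21 on the log2 scale (exact two-sided permutation p = 0.314, adjusted over 2 pairs 0.600). In Ts65Dn this difference of log2 values was 0.54, 0.75, 0.83 and 0.79 and in wild type 0.65, 0.70, 1.38 and 1.04, with wild-type array 3 the highest. Kcnj2 minus Kcnj11 differed by 0.13 (exact two-sided permutation p = 0.600, adjusted 0.600). The smallest p that 4 arrays against 4 can give, before adjustment, is 0.0286. A planned comparison of Scn4a with Clcn1 was not run.

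The genes most like each member were taken as those with the highest Pearson r over the 8 arrays, among 9419 protein-coding genes at or above the median level. For Clcn1 they were Snu13 (r = 0.99), Rev1 (0.98) and Itm2a (0.98). For Kcnj2 they were Sdhaf1 (0.95), Slc47a1 (0.95) and Nrf1 (0.94), and for Kcnj11 they were Map3k7cl (0.93), Wdr24 (0.91) and Stard4 (0.91). Ric8b, Atxn7l1 and Fam3c each had an r of 0.98 with Atp1b1. Polr2h (0.96), Cox15 (0.95) and Cox11 (0.95) led for Fxyd1. All these values share the scale of each array, and none of the 15 genes was called by limma, with adjusted p-values from 0.227 to 0.919. Taken as the highest among 9419 genes over 8 arrays, these r values are high in part by selection. They were not recomputed without the array in which Clcn1 and Atp1b1 were lowest, and shared regulation was not tested.

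Of 79 further genes of membrane excitability and the sodium pump, in 5 lists, 70 were measured. Among these 70, 2 were called higher in Ts65Dn, beside 2.32% of all genes, and 0 lower, beside 2.94%. An unadjusted p under 0.05 was reached by 27 of the 70, 11 higher and 16 lower, beside 34.8% of all genes. The median log2 fold change of the 70 was -0.14, beside -0.10 over all genes, and 0.02 after level matching. The 2 called genes were Atp1b4 of the pump list and Ank3 of the sodium channel list.

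**Figure D3:**
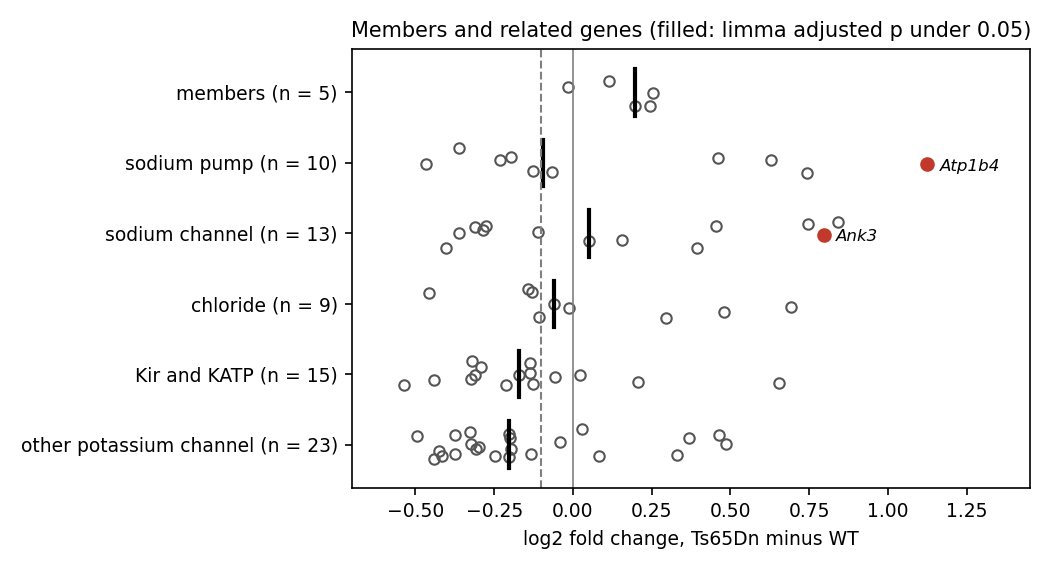
Log2 fold change (Ts65Dn minus wild type) of each measured member and of each measured gene in the 5 related lists, with the list median as a black bar and the median of all genes as a dashed line; height within a list has no meaning. The called genes, filled, are Atp1b4 (1.12) and Ank3 (0.80).

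In the sodium pump list, 10 of 13 genes were measured. Of these, 1 was called higher, beside 2.32% of all genes, and 0 lower, beside 2.94%. The median log2 fold change was -0.10. The sign of this median turned to 0.08 after level matching and to 0.01 without wild-type arrays 2 and 3. Atp1b4, which belongs to the beta subunit family by sequence but in placental mammals is a protein of the nuclear envelope of muscle, not a pump subunit, had values of 6.99, 6.12, 5.95 and 6.45 in Ts65Dn and of 5.37, 5.31, 5.28 and 5.05 in wild type. All 4 Ts65Dn arrays were above the wild-type range, as held for 6.81% of all genes. It rose by 1.12 on the log2 scale, or 2.18-fold (95% interval 1.59 to 2.99, adjusted p = 0.0456, limma). The log2 fold change was 1.06 after level matching (adjusted p = 0.0561, limma) and 1.17 without wild-type arrays 2 and 3.

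Atp1b2, a beta subunit of glia and some muscle fibres, had values of 6.03, 5.35, 5.78 and 6.65 in Ts65Dn and of 5.21, 5.25, 5.50 and 4.89 in wild type. Ts65Dn array 2 lay within the wild-type range. The log2 fold change was 0.74 (adjusted p = 0.0739, limma) and 0.72 after level matching. It was 0.51 without Ts65Dn array 4, where Atp1b2 was highest, and 0.91 without wild-type arrays 2 and 3. Atp1b3, a widely expressed beta subunit named after its values were seen, had a log2 fold change of 0.63 (adjusted p = 0.140, limma). Every Ts65Dn array exceeded the highest wild-type array, by a narrow margin. Ts65Dn stood clear above wild type in 6.81% of all genes. Leaving out wild-type arrays 2 and 3 brought the log2 fold change of Atp1b3 to 0.28. Fxyd4, an FXYD protein of kidney, was below the wild-type range in all 4 Ts65Dn arrays, as held for 15.9% of all genes, with a log2 fold change of -0.47 (adjusted p = 0.0667, limma) that was -0.21 after level matching.

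**Figure D4:**
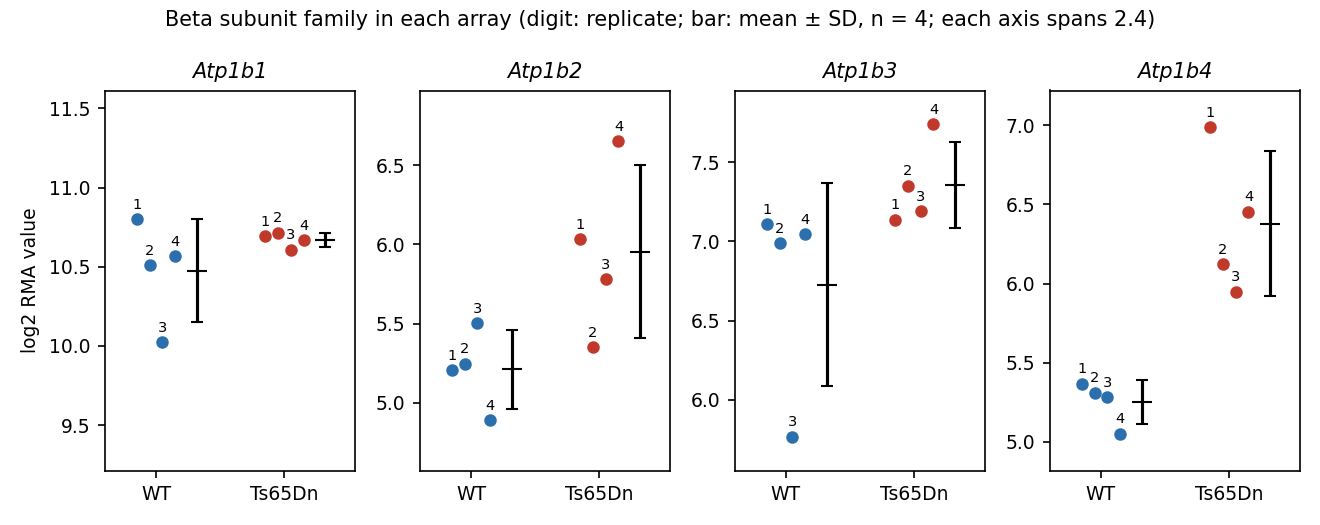
Log2 RMA value of the 4 beta subunit family genes in each array, wild type in blue and Ts65Dn in red, with the replicate number at each point and the mean ± SD (n = 4) as black bars; all panels span the same number of log2 units. The groups overlap for Atp1b1 and Atp1b2 and do not for Atp1b3 and Atp1b4.

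Atp1b4 and Atp1b1 were set side by side within arrays after their values were seen, so the pair is a description and has no test. Atp1b4 minus Atp1b1 differed between the groups by 0.93 on the log2 scale. With single arrays left out this difference was 0.73 to 1.09, and it was 1.18 without wild-type arrays 2 and 3.

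The upstream windows of the 2 beta family genes are shown beside these values, as above. They are chr1:164458356-164458605 (- strand) for Atp1b1 and chrX:38315872-38316121 (+ strand) for Atp1b4.
Atp1b1: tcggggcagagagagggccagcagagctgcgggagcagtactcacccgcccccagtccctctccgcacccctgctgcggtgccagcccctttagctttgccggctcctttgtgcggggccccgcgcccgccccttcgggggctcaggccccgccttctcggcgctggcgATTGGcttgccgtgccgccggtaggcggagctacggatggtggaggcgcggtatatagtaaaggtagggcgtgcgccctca
Atp1b4: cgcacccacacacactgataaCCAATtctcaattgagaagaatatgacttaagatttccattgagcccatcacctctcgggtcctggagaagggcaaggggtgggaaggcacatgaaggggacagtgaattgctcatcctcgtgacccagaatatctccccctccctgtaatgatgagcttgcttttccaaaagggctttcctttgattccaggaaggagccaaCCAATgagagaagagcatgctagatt

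Of the 5 motifs searched, each of these windows held CCAAT alone. It began 81 bases before the start for Atp1b1, on the opposite strand, and 229 and 26 bases before it for Atp1b4.

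Among sodium channel genes, 13 of 16 were measured. Of these, 1 was called higher, beside 2.32% of all genes, and 0 lower, beside 2.94%. The median log2 fold change was 0.05. Ank3, ankyrin-G, a scaffold that anchors sodium channels in the membrane, had values of 7.51, 7.60, 7.48 and 7.47 in Ts65Dn and of 7.24, 6.51, 6.43 and 6.70 in wild type. All 4 Ts65Dn arrays were above the wild-type range, as held for 6.81% of all genes. Ank3 rose by 0.80 on the log2 scale (95% interval 0.42 to 1.18, adjusted p = 0.0456, limma), and by 0.46 after level matching (adjusted p = 0.0957, limma). Without wild-type arrays 2 and 3 its log2 fold change was 0.54 (adjusted p = 0.210, limma). The beta subunit Scn2b had a log2 fold change of -0.40 (adjusted p = 0.0772, limma) and the sensory neuron channel Scn11a one of -0.36 (adjusted p = 0.109, limma); after level matching these were -0.13 and -0.11.

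The calls of Atp1b4 and Ank3 were both lost when any Ts65Dn array, wild-type array 2 or wild-type array 3 was left out, with adjusted p-values from limma of 0.0770 to 0.115. In each of these settings 0 or 1 genes were called over all genes, so the loss was not particular to these genes. Their log2 fold changes there were 0.92 to 1.27 for Atp1b4 and 0.70 to 0.81 for Ank3. Both calls were kept without wild-type array 1 or 4, where 2865 and 2422 genes were called over all genes.

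Of 10 chloride genes 9 were measured and 0 were called by limma, and 2 had an unadjusted p under 0.05, beside 34.8% of all genes. The median log2 fold change was -0.06. The sign of the median turned to 0.12 after level matching, with 7 of 9 genes above 0 in place of 3, and to 0.02 without wild-type arrays 2 and 3. Clcn2, a widely expressed ClC channel, had a log2 fold change of -0.46 (adjusted p = 0.0632, limma) and was below the wild-type range in all 4 Ts65Dn arrays, as were 15.9% of all genes. Its value was -0.24 after level matching and -0.25 without wild-type arrays 2 and 3. Slc12a2, the cotransporter that loads cells with sodium, potassium and chloride, had one of 0.69 (adjusted p = 0.0839, limma), and 0.23 without wild-type arrays 2 and 3. Clcn7, the lysosomal chloride-proton exchanger, had one of 0.48 (adjusted p = 0.171, limma), which was 0.70 after level matching and 0.27 without wild-type array 3.

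All 15 other inward rectifier and sulfonylurea receptor genes were measured, and 0 were called by limma. An unadjusted p under 0.05 was reached by 4, beside 34.8% of all genes. Their median log2 fold change was -0.17, and -0.02 after level matching. Kcnj12, which forms inward rectifiers together with Kcnj2, averaged 6.27 ± 0.23 in the 4 Ts65Dn arrays and 6.25 ± 0.10 in the 4 wild-type arrays (SD of log2 values, adjusted p = 0.922, limma). Kcnj8, the pore of the ATP-sensitive channel of vessel wall cells, had a log2 fold change of -0.06 (adjusted p = 0.784, limma). Kcnj10, a rectifier of glia, had one of -0.54 (adjusted p = 0.0662, limma) and Kcnj4 one of -0.32 (adjusted p = 0.0910, limma), which were -0.25 and -0.04 after level matching.

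Among 25 other potassium channel genes 23 were measured and 0 were called by limma. An unadjusted p under 0.05 was found for 10, beside 34.8% of all genes. Their median log2 fold change was -0.20, and -0.005 after level matching. Kcnq1, a voltage-gated channel of heart and epithelia, had a log2 fold change of -0.42 (adjusted p = 0.0652, limma), the accessory subunit gene Kcne1l one of -0.44 (adjusted p = 0.0728, limma), and Kcne2 one of -0.50 (adjusted p = 0.0780, limma). After level matching they were -0.18, -0.42 and -0.26.

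Channel genes in the chromosome 16 segment that is trisomic in Ts65Dn (Mrpl39 to the distal end, in RefSeq gene order) were not called either. The rectifiers Kcnj6 and Kcnj15 had log2 fold changes of -0.21 and -0.14, and the accessory subunits Kcne1 and Kcne2 had -0.20 and -0.50, with adjusted p-values from limma from 0.0780 to 0.442. After level matching the values were 0.001 for Kcnj6, 0.15 for Kcnj15, 0.08 for Kcne1 and -0.26 for Kcne2. All lay below the median level: 15.4% of all genes were dimmer than Kcnj6, 40.9% than Kcnj15, 27.9% than Kcne1 and 21.1% than Kcne2. Whether these genes are expressed in this muscle was not tested, so their values do not settle an effect of the third copy.

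The tissue label was checked against markers. All 9 muscle markers were measured, some general, such as the skeletal actin Acta1, and some of slow fibres, such as the myosin Myh7. Of these 0 were called by limma, with 1 at an unadjusted p under 0.05, beside 34.8% of all genes. Their mean was 11.42 to 11.55 in Ts65Dn and 11.34 to 11.44 in wild type. Of 10 fast-fibre markers 0 were called, with 0 at an unadjusted p under 0.05, beside the same 34.8%. Their mean was 10.62 to 11.46 in Ts65Dn and 10.50 to 10.73 in wild type. In Ts65Dn array 4 the fast myosin Myh4 was at 10.52, against 5.89 to 6.76 in the other 7 arrays. Without that array the log2 fold changes of the members were 0.35 for Clcn1, 0.35 for Kcnj2, 0.14 for Kcnj11, 0.20 for Atp1b1 and -0.03 for Fxyd1.

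Markers of other cells were summed up by their mean in each array. The mean of 7 endothelial markers was at least 5.67 in every Ts65Dn array and at most 5.45 in every wild-type array, and 2 were called higher (Kdr and Emcn), beside 2.32% of all genes, while Tie1 and Esam had log2 fold changes of -0.04 and -0.18. The mean of 7 macrophage markers was 5.03 to 5.61 against 4.61 to 4.87, with 1 called higher (Cd68, by 2.39), the only one of the 7 with an unadjusted p under 0.05. The mean of 6 fibroblast markers was 6.68 to 6.91 against 6.52 to 6.65, with 1 called higher (Pdgfra). The fold change was above 0 for 3 of these 6 and below 0 for 3, with -0.35 for Col1a1, -0.24 for Col1a2 and -0.06 for Col3a1. For 9 smooth muscle and pericyte markers the mean was 5.53 to 5.76 against 5.53 to 5.72, overlapping between the groups, with 1 called lower (Notch3). For 5 measured nerve sheath markers it was 5.07 to 5.16 against 5.20 to 5.41, lower in every Ts65Dn array. The median log2 fold change of these 5 was -0.35, and -0.07 after level matching. For 6 adipocyte markers the mean was 5.58 to 6.18 against 5.94 to 6.46, overlapping between the groups. In either list 0 were called by limma. Several genes of the related lists are also made by these cells, and the part of these cells in their values was not tested. Over all genes 2.32% were called higher and 2.94% lower. After level matching the adjusted p-values from limma were 0.0170 for Kdr, 0.0456 for Pdgfra, 0.0569 for Emcn, 0.0909 for Cd68 and 0.291 for Notch3. Without wild-type arrays 2 and 3 those of the same genes ran from 0.165 to 0.222.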

How the data were processed

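The authors' deposited log2 values of Affymetrix Mouse Gene arrays were used, 1 array from each of 8 mice. Per the submitters' processing notes they were made at gene level with Affymetrix Expression Console 1.1 and RMA. The log2 scale was read from the range of the values, and higher values are brighter. No build or annotation is named for the arrays (not given in the sources used here). RNA was column-purified and amplified as biotinylated cDNA, per the labels' protocols.

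Of 35556 probe sets, 21789 carry exactly 1 gene symbol. Symbols were updated through Entrez identifiers with the RefSeq table of assembly GRCm38.p6. Where a gene had more than 1 probe set, the brightest on average was kept, leaving 19938 genes. Level matching took the 100 genes nearest in mean level.

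The 2 groups were fitted without covariates in limma 3.58.1 (lmFit, then eBayes; R 4.3.3), with Benjamini-Hochberg adjustment over all genes. Within-array differences of 2 genes were compared between the groups by exact permutation over all 70 splits of the arrays. Exact p-values of the correlations were taken over all orderings of the arrays compared. Ranks and adjustment over pairs used SciPy 1.17.1. The fit was tested on simulated data. Members, lists and tests were chosen with earlier results of these data known. The text names the members, the called genes and the 3 genes with the smallest p of each related list, some genes fixed by name, and the 3 genes most like each member. Others were named after their values were seen. Python 3.11.15, pandas 2.3.3 and matplotlib 3.10.9 were used.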

Additional observations from a re-analysis of the deposited data

Results flagged for a closer look

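In Ts65Dn the Kcnj11 value of array 3, 6.69, stood apart from the other 3 arrays of the group, which lay between 6.21 and 6.28. The Fxyd1 value of Ts65Dn array 1, 11.24, lay below the other 3, which were between 11.44 and 11.47. Both gaps took up more of the group's range than Dixon's limit for 4 samples allows. By chance about 1 group in 20 does so, and these were the 2 values found among 56 groups of 28 genes examined.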

How the results depend on the processing

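None of the 5 members was called by limma under any of the 19 alternatives run for each. Their values moved with array scaling and with single arrays of both groups. Signs turned as follows. Dropping wild-type arrays 2 and 3 gave log2 fold changes of -0.051 for Clcn1, -0.065 for Kcnj2 and -0.012 for Atp1b1. With quantile normalization again it was -0.013 for Kcnj2 and -0.060 for Kcnj11, and with level matching -0.025 for Kcnj2 and -0.19 for Kcnj11. Fxyd1 turned to 0.19 with array median centring, to 0.04 without Ts65Dn array 1 and to 0.05 without wild-type array 4. The largest member values came with that centring, up to 0.46 for Clcn1. Leaving out 1 array gave 0.0001 to 0.40 for Clcn1, 0.09 to 0.43 for Kcnj2, 0.0014 to 0.19 for Kcnj11, 0.05 to 0.30 for Atp1b1 and -0.083 to 0.046 for Fxyd1. Fxyd1 minus Atp1b1 stayed negative, from -0.31 to -0.066. Kcnj2 minus Kcnj11 turned to -0.11 without wild-type arrays 2 and 3, ran from -0.041 (without Ts65Dn array 2) to 0.26 with single arrays left out, and was 0.047 with quantile normalization. The cause of these turns was not tested.

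The limma count over all genes was 1049, with 6948 genes at an unadjusted p under 0.05. It was 1 with quantile normalization, 135 with cyclic loess, 99 with level matching, 436 among genes at or above the median level, 236 with array weights, 0 with all probe sets adjusted together (6462 unadjusted), 1 without wild-type arrays 2 and 3, and 0 to 2865 with 1 array left out. Higher calls were 462 of 1049 on the deposited values and 951 of 1008 with array median centring. Among the related genes 2 were called. This was 1 with cyclic loess or array weights, 0 with quantile normalization, level matching, all probe sets adjusted together or without wild-type arrays 2 and 3 (7 to 20 unadjusted), and 0 to 7 with 1 array left out.

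With the replicate block the limma count over all genes was 0 and that of related genes 0, with 7014 and 27 at an unadjusted p under 0.05. The labels share replicate numbers between groups, but same-numbered arrays deviated together only weakly (correlations of 0.01 to 0.09), so the numbers were not taken as pairs. Over swaps within replicate numbers, Fxyd1 minus Atp1b1 and Kcnj2 minus Kcnj11 had adjusted exact permutation p-values of 0.500 and 0.750, at differences of -0.21 and 0.13. With 16 such swaps this test cannot give a p under 0.05, so neither pair could have passed it. Atp1b4 minus Atp1b1, chosen after its values were seen and given without a test, was 0.93 with the replicate block, ran from 0.73 to 1.09 with single arrays left out and was 1.18 without wild-type arrays 2 and 3.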

Other observations

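Genes that rise in muscle fibres on loss of their nerve supply were listed because some of them encode surface channels. Of 11 measured genes of this list 0 were called by limma, and 5 had an unadjusted p under 0.05, 4 of them higher, beside 34.8% of all genes. Chrnb1, a subunit of the endplate acetylcholine receptor, had a log2 fold change of 0.66 (adjusted p = 0.0521, limma). Musk, the kinase that organises the endplate, had one of 0.89 (adjusted p = 0.0529, limma). In both genes all 4 Ts65Dn arrays lay above the wild-type range, as held for 6.81% of all genes. Level matching gave 0.57 for each, with adjusted p-values from limma of 0.107 and 0.119, and dropping wild-type arrays 2 and 3 gave 0.35 and 0.54. Over the 11 genes the log2 fold change was above 0 for 7 and below 0 for 4. Chrng, the fetal subunit of the receptor, named after its values were seen, had a log2 fold change of -0.57 (adjusted p = 0.0634, limma). It was -0.31 after level matching (adjusted p = 0.249, limma) and -0.34 without wild-type arrays 2 and 3.

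The neuronal sodium channel Scn2a, also named after its values were seen, had values of 8.87, 8.09, 8.26 and 7.37 in Ts65Dn and of 7.34, 8.25, 5.25 and 8.38 in wild type, replicates 1 to 4. Wild-type array 3 lay far below the other 7 arrays. Scn2a has 14 probe sets, and these values are of the brightest on average, so they do not show the level of the others. The log2 fold change was 0.84 (adjusted p = 0.322, limma) and 0.29 without wild-type arrays 2 and 3.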
